A study of Mus musculus with 8 samples.

Results

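The cytosolic ribosomal protein genes were examined in livers of mice whose hepatic Foxo1 was knocked out and in livers of wildtype control mice. They were chosen as a set with earlier results of these data known. Membership went by name alone, as protein-coding genes with an Rpl or Rps symbol, leaving out the S6 kinases, an S19-binding protein and pseudogenes. This gave 84 genes, 51 of the large subunit and 33 of the small subunit, among the 25690 genes of the deposited table. Of these, 81 averaged 1 FPKM or more across all 8 libraries and were tested among 10250 genes. FPKM counts sequenced fragments relative to transcript length and to all mapped fragments of the library. Rpl10l, Rpl39l and Rpl3l lay below that level, and Rpl13 was not analysed here.

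The study asked how the liver transcriptome changes when FOXO1, a transcription factor that insulin signalling inactivates, is lost from liver. There were 4 knockout libraries, numbered 3, 9, 10 and 11, and 4 wildtype libraries, numbered 1, 3, 10 and 12, all from total RNA of hepatic tissue, and values per library are given in this order. The sources used here give neither age, sex and strain of the mice nor the promoter or Cre line behind the hepatic deletion. No label states whether each library is from its own animal, so the p-values reflect variation from library to library, which may be technical. Foxo1 averaged 0.269 ± 0.0743 FPKM in knockout and 3.35 ± 0.341 FPKM in wildtype livers (SD, n = 4 each), with no overlap between the groups.

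Ribosomal proteins join ribosomal RNA in the nucleolus to form the 40S subunit, which reads the mRNA, and the 60S subunit, which joins amino acids. Their mRNAs start with a run of pyrimidines, the terminal oligopyrimidine or TOP motif, through which mTOR signalling controls their translation. The liver exports much of the protein it makes, and its ribosomal protein mRNAs are among the abundant messages of the tissue.

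Ribosomal protein mRNAs were lower in the knockout livers across both subunits. Of the 81 genes tested, 67 fell and 0 rose (limma on log2(FPKM + 1), Benjamini-Hochberg adjusted p under 0.05), which is 82.7%, while 11.7% of all genes tested fell and 2.7% rose. All 81 log2 changes were below 0, and at an unadjusted p under 0.05 the fit gave 76 lower and 0 higher. The adjusted p of the 67 genes ran between 0.00219 and 0.0491. The median log2 change over the 81 genes was -0.55, with quartiles at -0.73 and -0.38, and the median over all genes tested was -0.08. In linear terms the median gene had 68.3% of its wildtype mean. In 73 genes all 4 knockout libraries lay below all 4 wildtype libraries, and in the other 8 the groups overlapped; over all genes tested, 16.5% were separated in the same direction and 4.83% in the other. In bulk tissue, fewer cells of a type and less RNA per cell cannot be told apart. These short genes also lie on a trend along gene length that runs through the whole comparison, described below, and between 22 and 33 genes fell with that trend removed. With median-ratio scaling 47 of the 81 fell, where 7.02% of all genes fell and 4.73% rose, and with quantile normalization 34 fell, where 6.36% fell and 4.59% rose.

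**Figure D1:**
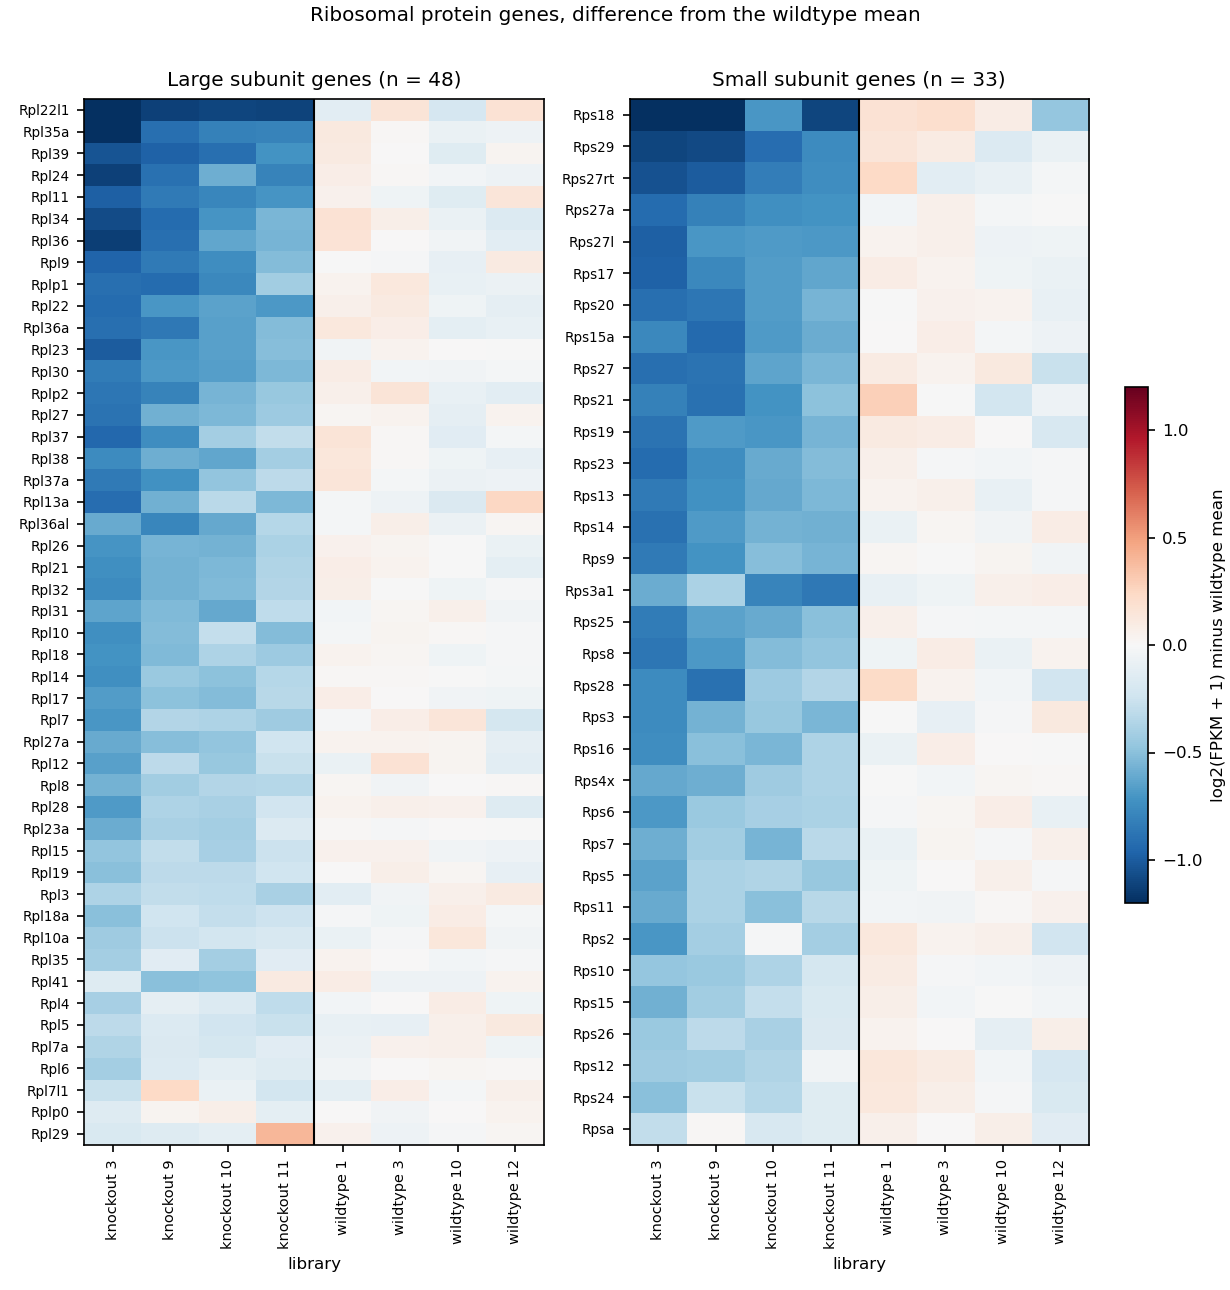
Difference of log2(FPKM + 1) from the wildtype mean for each tested ribosomal protein gene (rows, from the most negative log2 change at the top) in each of the 8 libraries (columns, knockout to the left of the black line), with 60S genes in the left panel and 40S genes in the right. Nearly every knockout tile is blue, knockout 3 is the darkest column with a median of -0.74, and the rows at the bottom, such as Rplp0 and Rpl29, show little difference.

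As a group, the 48 large subunit genes had a median log2 change of -0.52 and 38 of them fell. The 33 small subunit genes had a median of -0.65 and 29 of them fell. The difference between the subunits was not tested. Mean levels over the 8 libraries ran between 17.2 and 1361 FPKM with a median of 428, and 78 of the 81 genes were at 100 FPKM or more. Across genes, the log2 change had a Pearson r of -0.23 and a Spearman rho of -0.27 with the log2 mean level (n = 81 genes, which share their libraries and are not independent).

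Pyrimidine runs, as in the TOP motif, were looked for in the RefSeq promoter table (GRCm38.p6, the assembly behind mm10). The table holds 250 bases before to 50 bases after each start. It had 72 entries for 61 of the tested genes. A run of 8 or more C or T letters within 50 bases of the start was in 77.8% of these entries and in 35.7% of all 32851 entries. A run of 8 or more purines, the same search on the opposite letters, was in 25% and 38.1% of them. The stretches shown here hold the pyrimidine run, in capitals, of 5 genes that fell and of 3 that were not called. Each covers 30 bases, read 5′ to 3′ on the strand of the gene.
Rpl22l1, chr3:28805499-28805528, plus strand: cgcaagcccgTTCTCTTCCCacggctgcag
Rps18, chr17:33955647-33955676, minus strand: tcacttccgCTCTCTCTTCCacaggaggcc
Rpl35a, chr16:33056469-33056498, plus strand: ggggcttgCCTTCCTCTTTCCgccatcttg
Rps27, chr3:90213631-90213660, minus strand: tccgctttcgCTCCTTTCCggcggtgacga
Rplp2, chr7:141447636-141447665, plus strand: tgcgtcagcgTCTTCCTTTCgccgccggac
Rplp0, chr5:115559467-115559496, plus strand: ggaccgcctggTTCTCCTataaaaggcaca
Rpsa, chr9:120127702-120127731, plus strand: gagcggaagTTCTCCCTTTTTgcttagcct
Rpl7l1, chr17:46782670-46782699, minus strand: gtcgaggcgggCCTCTCTaccccgcccggt

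The 5 genes that fell have runs of 9 to 13 letters. Of the 3 that were not called, Rplp0 and Rpl7l1 have runs of 7 and Rpsa a run of 12, of which 7 lie within the 50 bases searched. Relative to the annotated start, the runs began at 1 (Rpl22l1), -2 (Rps18), 24 (Rpl35a), -2 (Rps27) and -5 (Rplp2). Those of the genes not called began at 11 (Rplp0), -55 (Rpsa) and -32 (Rpl7l1). The runs of Rpsa and Rpl7l1 thus lie before the annotated start. Those of Rpl35a, which fell, and Rplp0 begin 24 and 11 bases past it. Not every run is a TOP motif by position, among the genes that fell or the others. These 8 genes were picked for display and do not stand for all matched genes. The 50 genes with a run of 8 or more had a median log2 change of -0.55 and 40 of them fell. The 11 with a shorter run had a median of -0.61 and 8 of them fell. With runs followed past the edge of the 50 bases, 41 of 52 genes with a run of 8 or more fell, against 7 of 9 with a shorter one. The FOXO core motif GTAAACA, on either strand (TGTTTAC), was in 1.39% of the ribosomal protein entries and in 3.65% of all entries. Rpl41 was the gene that held it. The ETS-type motif CCGGAAG, on either strand (CTTCCGG), was in 36.1% and 8.86%. A match is a description of letters and not a binding site.

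The P-stalk, which recruits elongation factors to the 60S subunit, is built from Rplp0 as the base and dimers of Rplp1 and Rplp2. Rplp0 (chromosome 5, 115559470 to 115563730, mm10, plus strand) was at 266, 303, 310 and 273 FPKM in knockout livers, against 297, 287, 297 and 304 FPKM in wildtype livers. The groups overlapped, and the log2 change was -0.04 (SE 0.09, limma adjusted p = 0.783). Rplp1 was at 492, 487, 539 and 692 FPKM in knockout livers, against 952, 1007, 865 and 877 FPKM in wildtype livers. Every knockout library lay below every wildtype library, although knockout 11 stood above the other knockouts, and Rplp1 fell by 0.75 on the log2 scale (SE 0.13, limma adjusted p = 0.00749). Rplp2 was at 269, 282, 332 and 358 FPKM in knockout livers, against 513, 548, 462 and 448 FPKM in wildtype livers. It fell by 0.67 on the log2 scale (SE 0.12, limma adjusted p = 0.00892). The ratio of Rplp1 to Rplp0 was 1.93 ± 0.412 in knockout and 3.13 ± 0.295 in wildtype livers, and that of Rplp2 to Rplp0 was 1.08 ± 0.162 in knockout and 1.67 ± 0.194 in wildtype livers (SD, n = 4 each). Neither ratio overlapped between the groups, and neither was tested. With the coding sequence length trend removed, Rplp1 was at a log2 change of -0.42 (limma adjusted p = 0.0454), Rplp2 at -0.34 (limma adjusted p = 0.0648) and Rplp0 at 0.07 (limma adjusted p = 0.491). Rplp1 did not pass with the trend along the longest transcript removed (log2 change -0.33, limma adjusted p = 0.0673) or with that along the longest coding transcript removed (-0.24, limma adjusted p = 0.128). The coding sequence of Rplp0, at 951 bases, is longer than those of Rplp1, at 342, and Rplp2, at 345.

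Rpl5 and Rpl11 bind 5S ribosomal RNA and, when free of the ribosome, hold Mdm2 and so let p53 accumulate. Rpl11 (chromosome 4, 136028260 to 136053430, minus strand) was at 325, 356, 373 and 393 FPKM in knockout livers, against 666, 621, 579 and 710 FPKM in wildtype livers. It fell by 0.83 on the log2 scale (SE 0.10, limma adjusted p = 0.00316), and the groups were far apart. Rpl5 was at 151, 167, 160 and 156 FPKM in knockout livers, against 177, 176, 197 and 205 FPKM in wildtype livers. The groups did not overlap, but the log2 change of -0.25 (SE 0.09) did not pass (limma adjusted p = 0.0953). The ratio of Rpl11 to Rpl5 was 2.28 ± 0.184 in knockout and 3.43 ± 0.348 in wildtype livers (SD, n = 4 each), without overlap and without a test.

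Rpl22l1, a paralogue whose protein can take the place of Rpl22 in the 60S subunit, had the largest fall of the 81 genes. Rpl22l1 (chromosome 3, 28805436 to 28807424, plus strand) was at 46.4, 56.5, 57.3 and 56.7 FPKM in knockout livers, against 113, 138, 107 and 140 FPKM in wildtype livers. The knockout mean was 43.5% of the wildtype mean, and the gene fell by 1.18 on the log2 scale (SE 0.12, limma adjusted p = 0.00219). Rpl22 itself was at 281, 328, 343 and 330 FPKM in knockout livers, against 556, 576, 515 and 495 FPKM in wildtype livers, and fell by 0.74 on the log2 scale (SE 0.10, limma adjusted p = 0.00394). The ratio of Rpl22l1 to Rpl22 was 0.169 ± 0.00338 in knockout and 0.234 ± 0.0360 in wildtype livers (SD, n = 4 each). All 4 knockout ratios lay below all 4 wildtype ratios, and the difference was not tested. The ratios of Rps27, Rpl36a and Rpl7 with their paralogues, given below, overlapped between the groups. How often such ratios separate among all genes was not counted. With the coding sequence length trend removed Rpl22l1 still fell by 0.87 and Rpl22 by 0.44 (limma adjusted p = 0.00552 and 0.0226). With the longest-transcript trend removed they fell by 1.04 and 0.61 (limma adjusted p = 0.00311 and 0.0109). With the longest coding transcript trend removed the falls were close, at 0.69 and 0.63 (limma adjusted p = 0.0119 and 0.0121). Those coding transcripts have 552 bases in Rpl22l1 and 2051 in Rpl22, so the gap between the paralogues depends on the length used.

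Rpl35a, Rpl39, Rpl24, Rpl30 and Rpl37 of the large subunit also fell. Rpl35a, a gene mutated in human Diamond-Blackfan anaemia, was at 439, 551, 587 and 590 FPKM in knockout livers, against 1121, 1042, 979 and 991 FPKM in wildtype livers. Its log2 change was -0.94 (SE 0.12, limma adjusted p = 0.00329), with the groups well separated. Rpl39, a very short protein that lines the exit tunnel of the nascent chain, was at 173, 181, 188 and 214 FPKM in knockout livers, against 381, 356, 320 and 363 FPKM in wildtype livers. Its log2 change was -0.91 (SE 0.10, limma adjusted p = 0.00235). Rpl24, which forms a bridge between the subunits, had a log2 change of -0.85 and 55.8% of its wildtype mean (limma adjusted p = 0.00408). Rpl30 fell by 0.68 and Rpl37 by 0.60 on the log2 scale (limma adjusted p = 0.00413 and 0.0267).

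Of the abundant large subunit genes, Rpl13a averaged 829 ± 137 FPKM in knockout and 1241 ± 161 FPKM in wildtype livers (SD, n = 4 each), a log2 change of -0.59 (SE 0.15, limma adjusted p = 0.0286). In human cells phosphorylated RPL13A leaves the ribosome to silence inflammatory mRNAs. Rpl28 averaged 814 ± 104 FPKM in knockout and 1083 ± 74.5 FPKM in wildtype livers, and its log2 change of -0.42 (SE 0.12) was close to the threshold (limma adjusted p = 0.0452). Rpl27a had a log2 change of -0.46 (limma adjusted p = 0.0175). Rpl41, the shortest of the coding sequences at 138 bases, was at 1009, 792, 802 and 1211 FPKM in knockout livers, against 1189, 1075, 1075 and 1151 FPKM in wildtype livers. Knockout 11 was the highest of the 8 libraries and knockouts 9 and 10 the lowest, so the groups overlapped (log2 change -0.26, SE 0.15, limma adjusted p = 0.273).

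Among the remaining paralogue pairs the results were mixed. Rpl36a averaged 360 ± 45.1 FPKM in knockout and 597 ± 49.9 FPKM in wildtype livers, and its paralogue Rpl36al 472 ± 60.3 FPKM in knockout and 706 ± 28.8 FPKM in wildtype livers (SD, n = 4 each). Both fell, by 0.73 and 0.59 on the log2 scale (limma adjusted p = 0.00561 and 0.00985). The ratio of Rpl36al to Rpl36a was 1.31 ± 0.107 in knockout and 1.19 ± 0.0901 in wildtype livers, with overlapping groups. Rpl7 averaged 484 ± 51.5 FPKM in knockout and 667 ± 70.7 FPKM in wildtype livers and fell by 0.46 (limma adjusted p = 0.0315). Its low paralogue Rpl7l1, a factor of large subunit assembly, averaged 16.7 ± 2.95 FPKM in knockout and 17.6 ± 1.16 FPKM in wildtype livers, and the groups overlapped (log2 change -0.08, SE 0.12, limma adjusted p = 0.692). The ratio of Rpl7l1 to Rpl7 was 0.0345 ± 0.00437 in knockout and 0.0267 ± 0.00385 in wildtype livers, also overlapping. Rpl3, which lies at the peptidyl transferase centre, fell by 0.34 (limma adjusted p = 0.0302), and Rpl10, which joins the 60S subunit late, fell by 0.52 (limma adjusted p = 0.0146). Their tissue-restricted relatives were near or at 0. Rpl3l, known from striated muscle, lay between 0.101 and 0.309 FPKM in knockout and between 0.0375 and 0.225 FPKM in wildtype livers. Rpl39l, known from testis, reached at most 0.0807 FPKM in knockout and 0.0883 FPKM in wildtype livers, and Rpl10l, also known from testis, was listed at 0 in all 8 libraries.

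The remaining large subunit genes that were not called had small differences. Rpl29, a basic protein also known to bind heparin, was at 142, 145, 149 and 213 FPKM in knockout livers, against 167, 155, 160 and 164 FPKM in wildtype livers. The 3 knockouts other than number 11 lay below all wildtypes, while knockout 11 was the highest of all, and the log2 change was -0.01 (SE 0.13, limma adjusted p = 0.964). Without knockout 11 it was -0.15 (limma adjusted p = 0.281). Rpl6 was at 149, 177, 183 and 178 FPKM in knockout livers, against 192, 199, 202 and 200 FPKM in wildtype livers. Those groups did not overlap, with a log2 change of -0.21 (SE 0.09, limma adjusted p = 0.148). Rpl10a, Rpl35, Rpl4 and Rpl7a were likewise separated without passing, at log2 changes between -0.27 and -0.22 (limma adjusted p between 0.0805 and 0.133).

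In the small subunit Rps18, a protein of the 40S head, had the largest fall. Rps18 (chromosome 17, 33951999 to 33956001, minus strand) was at 239, 272, 405 and 307 FPKM in knockout livers, against 741, 757, 698 and 478 FPKM in wildtype livers. It fell by 1.13 on the log2 scale (SE 0.19, limma adjusted p = 0.00745), with wide spread in both groups and wildtype 12 well below the other wildtypes. Rps29, a zinc-binding protein of the 40S head, was at 486, 491, 554 and 617 FPKM in knockout livers, against 1154, 1113, 929 and 989 FPKM in wildtype livers. It fell by 0.96 (SE 0.12, limma adjusted p = 0.00306).

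The Rps27 genes encode zinc-binding proteins of the 40S subunit. Rps27, which had the highest mean level of the 81 genes, was at 904, 916, 1092 and 1161 FPKM in knockout livers, against 1814, 1749, 1844 and 1409 FPKM in wildtype livers. It fell by 0.74 on the log2 scale (SE 0.13, limma adjusted p = 0.00872). Rps27l, a paralogue known as a p53 target, averaged 385 ± 36.6 FPKM in knockout and 652 ± 28.5 FPKM in wildtype livers and fell by 0.76 (SE 0.10, limma adjusted p = 0.00361). The retrogene Rps27rt averaged 599 ± 58.8 FPKM in knockout and 1124 ± 134 FPKM in wildtype livers (SD, n = 4 each) and fell by 0.90 (SE 0.12, limma adjusted p = 0.00361). The ratio of Rps27l to Rps27 was 0.380 ± 0.0400 in knockout and 0.387 ± 0.0456 in wildtype livers, with overlapping groups. That of Rps27rt to Rps27 was 0.590 ± 0.0177 in knockout and 0.666 ± 0.103 in wildtype livers, also overlapping. The division of reads between such near-identical copies, and between ribosomal protein genes and their many processed pseudogenes, depends on the counting method and is uncertain.

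Rps27a, translated as a fusion with ubiquitin, was at 284, 308, 325 and 328 FPKM in knockout livers, against 529, 563, 531 and 539 FPKM in wildtype livers. Both groups were tight and far apart, and it fell by 0.80 on the log2 scale (SE 0.09, limma adjusted p = 0.00231). Rps6, the substrate of the S6 kinases, was at 416, 490, 507 and 515 FPKM in knockout livers, against 661, 681, 709 and 627 FPKM in wildtype livers, and fell by 0.48 (SE 0.10, limma adjusted p = 0.0148). Rps15a fell by 0.74, Rps20 by 0.75 and Rps25, a protein needed for initiation at several viral internal entry sites, by 0.65 (limma adjusted p = 0.00394, 0.0037 and 0.00496). Rps20 had a low level for its class, 28.7 ± 3.40 FPKM in knockout and 48.6 ± 2.06 FPKM in wildtype livers. The annotation used here gives it a longest coding transcript of 3706 bases, so its level per length depends on that annotation.

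Rpsa, the 40S protein also known as the laminin receptor precursor, was at 169, 210, 182 and 187 FPKM in knockout livers, against 216, 209, 218 and 189 FPKM in wildtype livers. The groups overlapped, and the log2 change of -0.15 (SE 0.10) did not pass (limma adjusted p = 0.325). The other small subunit genes that were not called were Rps2, Rps12 and Rps24, at log2 changes of -0.38, -0.31 and -0.31 (limma adjusted p = 0.117, 0.122 and 0.0992). Rps12 was at 576, 578, 601 and 749 FPKM in knockout livers, against 848, 826, 756 and 673 FPKM in wildtype livers, where knockout 11 and wildtype 12 made the overlap. Rps24 was at 676, 796, 756 and 866 FPKM in knockout livers, against 1042, 1005, 950 and 842 FPKM in wildtype livers, with the same pair of libraries overlapping.

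**Figure D2:**
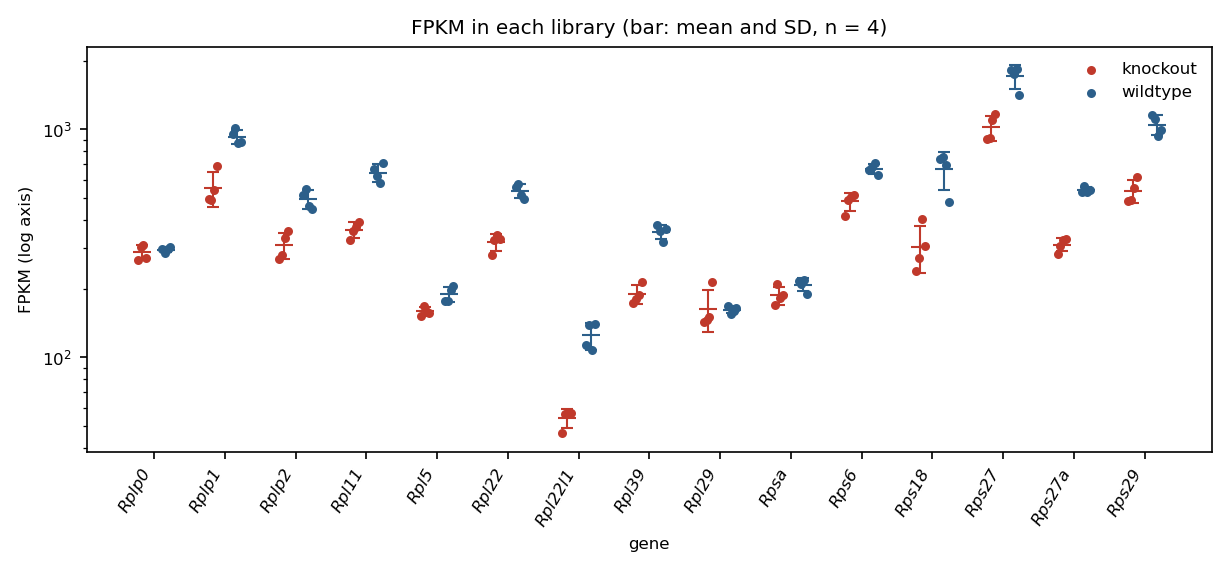
FPKM (log axis) of 15 ribosomal protein genes in each library, knockout in red to the left of wildtype in blue for each gene, with the mean and SD of 4 libraries as bars. Rpl22l1, Rps29, Rps27a and Rpl11 are separated by a clear gap, and Rps18 by a smaller one with wide spread in both groups. Rplp0, Rpl29 and Rpsa overlap.

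The knockout libraries differed among themselves more than the wildtype libraries did, but every knockout lay below every wildtype when the genes were summed. The summed FPKM of the 84 genes was 26693, 29476, 31214 and 33516 in knockouts 3, 9, 10 and 11, and 46851, 45782, 44102 and 43300 in wildtypes 1, 3, 10 and 12. As a share of all FPKM in the table this was 3.58% ± 0.332 in knockout and 5.27% ± 0.137 in wildtype livers (SD, n = 4 each). The totals behind this share were 857042, 823914, 805051 and 896762 FPKM in knockouts 3, 9, 10 and 11, and between 827233 and 867151 FPKM in the wildtypes. They hold other abundant genes that differed between libraries, such as Alb, listed at 0 in knockout 10, and the acute phase genes described below. The median deviation from the wildtype mean on the log2 scale was -0.74, -0.57, -0.52 and -0.41 in the same knockouts, and between -0.03 and 0.04 in the wildtypes. Over all genes tested, that median deviation was -0.145, 0.0019, -0.038 and -0.163 in knockouts 3, 9, 10 and 11. In the wildtypes it lay between -0.053 and 0.059. Knockout 3 was the lowest of the 8 libraries for 73 of the 81 genes, and knockout 11 was the highest knockout for 58. The same counts were not made over all genes. The median coefficient of variation of a gene was 10.6% in knockout and 5.14% in wildtype livers.

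Knockouts 3 and 11 also stood apart in acute phase genes, the plasma proteins that liver makes in inflammation. Their summed level over 20 genes was 108752 and 108821 FPKM in knockouts 3 and 11, 15288 and 14403 FPKM in knockouts 9 and 10, and between 12726 and 14261 FPKM in the wildtypes. The sum of 10 neutrophil markers was 63.0 and 154 FPKM in knockouts 3 and 11 and at most 6.38 FPKM in the other 6 libraries, with 5 of the 10 markers under 1 FPKM everywhere. With knockouts 3 and 11 both left out, 57 of 81 ribosomal protein genes fell, 0 rose and the median log2 change was -0.55. In that fit 6.35% of all genes fell and 1.88% rose. Among the knockouts, number 3 had the lowest median deviation of the ribosomal protein genes and number 11 the highest (-0.74 and -0.41). The median log2 change was -0.48 without knockout 3 alone and -0.60 without knockout 11 alone. The part of the acute phase difference in the ribosomal protein result was not tested. Hepatocyte markers summed to between 35980 and 68639 FPKM in knockout and between 54610 and 61535 FPKM in wildtype livers (10 genes), high as in liver, with the lowest sum in knockout 10, where Alb was listed at 0. Cholangiocyte markers, of which 7 of 8 were under 1 FPKM everywhere, summed to between 16.0 and 25.5 FPKM in knockout and between 11.7 and 17.8 FPKM in wildtype livers. Of 11 sinusoidal endothelial markers tested 4 fell, and the sum of all 12 lay between 51.8 and 86.3 FPKM in knockout and between 86.2 and 109 FPKM in wildtype livers. Lymphocyte markers were near 0, with 9 of 10 under 1 FPKM in every library. The part of the endothelial difference in the ribosomal protein result was not tested.

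The log2 changes ran along gene length, and ribosomal protein genes are short. The median coding sequence of the 81 genes was 453 bases, and that of the 9614 protein-coding genes tested was 1302 bases. At 300 to 500 bases 35 of 39 ribosomal protein genes fell, with a median log2 change of -0.67, against 235 of 733 other genes (32.1%) with a median of -0.27. At 500 to 750 bases 18 of 20 fell, with a median of -0.50, against 209 of 1178 other genes (17.7%) with a median of -0.17. Under 300 bases 9 of 10 fell, against 92 of 211 other genes (43.6%, median -0.34). At 750 to 1500 bases 5 of 12 fell, with a median of -0.29, against 340 of 3435 other genes (9.90%, median -0.09). The ribosomal protein genes had no member of 1500 bases and over, where 140 of 3976 other genes fell (3.52%, median -0.003). The differences in these shares were not tested. Across the 81 genes the log2 change had a Pearson r of 0.50 and a Spearman rho of 0.55 with the log10 coding sequence length, the shorter genes tending to the larger falls.

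**Figure D3:**
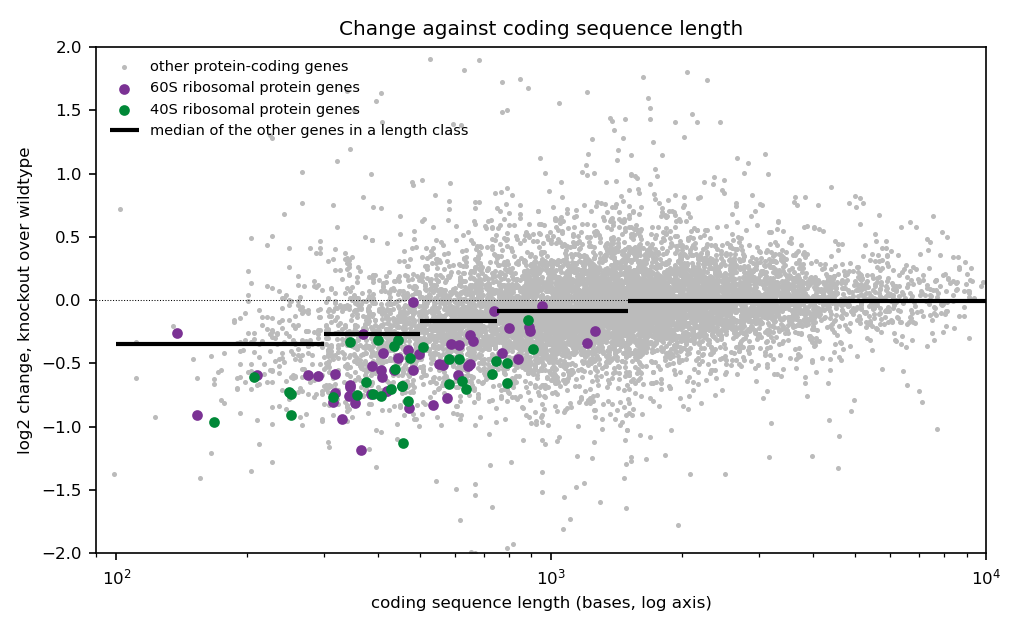
Log2 change of knockout over wildtype against coding sequence length (bases, log axis) for 60S genes (purple), 40S genes (green) and the other protein-coding genes tested (grey), with black bars at the median of the other genes in each length class. A few genes lie outside the plotted range. Most ribosomal protein genes lie below the bar of their class, which falls to -0.34 in the shortest.

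With the trend along length removed, the number of ribosomal protein genes that fell was smaller. It was 32 of 81 with the trend along coding sequence length removed, where 5.51% of all genes fell, and the median log2 change was -0.30. It was 33 when that trend was fitted on the other genes alone (median -0.31), where 5.66% of all genes fell. It was 29 with the trend along the longest transcript removed (median -0.29, 5.76% of all genes) and 22 with that along the longest coding transcript removed (median -0.20, 5.07% of all genes). In each of these 4 fits 0 ribosomal protein genes rose, where 4.82%, 4.56%, 5.08% and 4.84% of all genes rose. The same 20 genes fell in all 4 fits: Rpl22l1, Rpl9, Rpl11, Rpl22, Rpl23, Rpl24, Rpl30, Rpl34, Rpl35a and Rpl39 of the large subunit, and Rps3, Rps9, Rps13, Rps15a, Rps19, Rps20, Rps23, Rps25, Rps27a and Rps29 of the small subunit. The share of all genes that fell in all 4 fits was not counted. All 4 fits use the same libraries, and those along coding sequence length differ only in the genes used to fit the trend. Whether the length trend arose in the animals or in the libraries was not tested. The fragment-length correction in the FPKM values had an effective-length offset of 205 to 209 bases in knockout and 207 to 212 bases in wildtype libraries. This offset was estimated from single-fragment values, and its part in the trend was not tested.

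**Figure D4:**
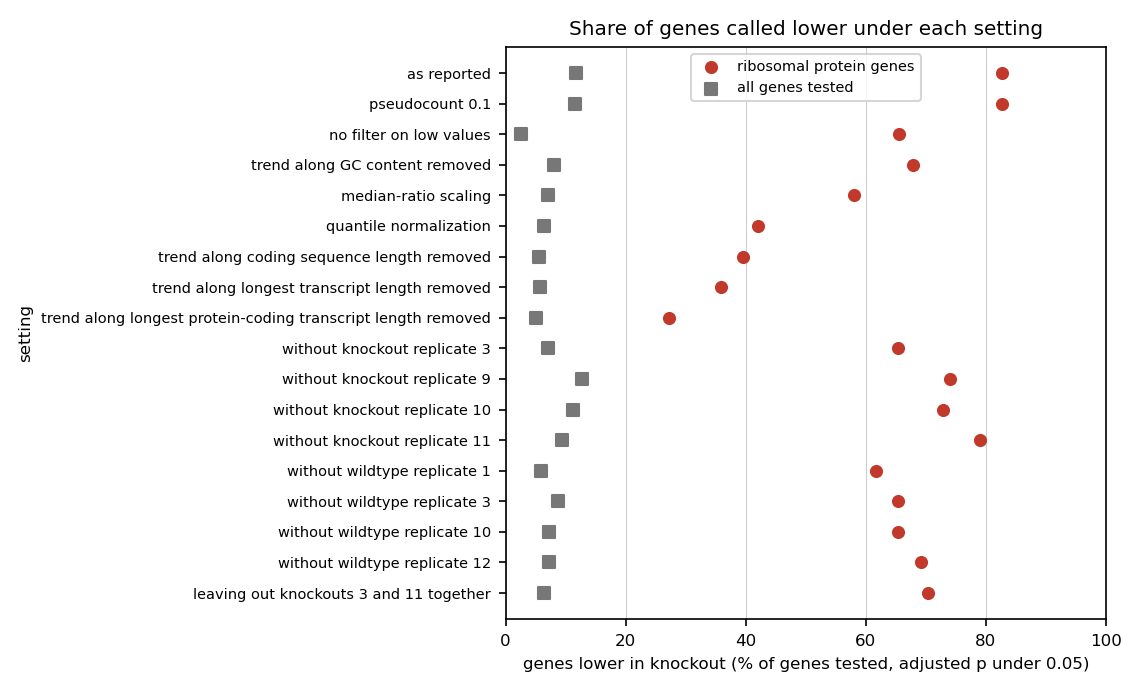
Percentage of the ribosomal protein genes (red circles) and of all genes tested (grey squares) that were lower in knockout livers at an adjusted p under 0.05, for the reported fit in the top row and for alternative settings in the rows under it. The ribosomal protein share runs from 82.7% as reported to 27.2% with the trend along the longest protein-coding transcript removed, and lies above the share of all genes in each row shown. The fit blocked on title number, in which 0 ribosomal protein genes were called, is not drawn.

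Genes that serve the ribosome in other ways were compared with the proteins of the ribosome itself, using lists chosen with results of these data already known. Fau and Rack1, which encode ribosomal proteins under other symbols, fell by 0.69 and 0.67 on the log2 scale (limma adjusted p = 0.0102 and 0.00619). With the longest-transcript trend removed, Rack1, a scaffold on the 40S subunit, still passed and Fau did not (limma adjusted p = 0.013 and 0.0757). Of 77 mitochondrial ribosomal protein genes, 32 fell and 0 rose, with a median log2 change of -0.31, where 11.7% of all genes fell and 2.7% rose. With the longest-transcript trend removed, 13 of them fell and 1 rose, with a median of -0.13. Of 20 tested pseudogenes with a ribosomal protein symbol, 8 fell and 0 rose, with a median of -0.34. With that trend removed 1 of them fell and 1 rose, and the median was 0.04.

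Among 23 elongation factor and TOP mRNA genes, 7 fell, 0 rose and the median log2 change was -0.21, where 11.7% of all genes fell. The RNA Gas5, a host of small nucleolar RNAs with a TOP start, averaged 141 ± 19.1 FPKM in knockout and 255 ± 16 FPKM in wildtype livers (SD, n = 4 each) and fell by 0.87 on the log2 scale (SE 0.11, limma adjusted p = 0.00361). The others that fell were Snhg6 by 0.75, Naca by 0.67, Tpt1 by 0.59, Eif3m by 0.57, Btf3 by 0.42 and Eif3e by 0.33. Of the 7, Snhg6 passed in 2 and Eif3e in 1 of the 8 fits that left out a library, the highest adjusted p being 0.092 without wildtype 1 and 0.128 without wildtype 10, and the other 5 passed in all 8. With the longest-transcript trend removed, Gas5, Naca, Eif3m and Eif3e still passed, and Tpt1, Btf3 and Snhg6 did not (limma adjusted p = 0.0514, 0.186 and 0.173). The elongation factors Eef1b2, Eef1d and Eef1g did not pass as reported (limma adjusted p = 0.379, 0.215 and 0.535), nor did Eef1a1 and Eef2. Eef1a1, which brings aminoacyl-tRNA to the ribosome, averaged 2359 ± 120 FPKM in knockout and 2307 ± 217 FPKM in wildtype livers, and Eef2, which moves the ribosome along, 287 ± 16.3 FPKM in knockout and 250 ± 23.4 FPKM in wildtype livers (limma adjusted p = 0.859 and 0.187).

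The lists for making ribosomes were set beside all genes, of which 11.7% fell and 2.7% rose. Of 40 genes for 60S assembly and export 0 fell and 0 rose by limma, with a median log2 change of -0.04, and at an unadjusted p under 0.05 there were 5 lower and 3 higher. Of 34 genes for 40S assembly 4 fell, Emg1, Imp3, Rrp9 and Rcl1, with a median of -0.05. Of 15 nucleolar genes Npm1 fell by 0.49, Nop10 by 0.40 and Fbl by 0.32, with a median of -0.20. Of 15 genes of RNA polymerase I transcription Polr1d fell by 0.38 and Myc rose, at 4.06 ± 2.89 FPKM in knockout and 0.624 ± 0.156 FPKM in wildtype livers (SD, n = 4 each, log2 change 1.44, limma adjusted p = 0.0346). Of 15 chaperones and importers of ribosomal proteins Pdcd2, Pdcd2l and Aamp fell. Among 16 genes of mTOR and S6 kinase signalling, which governs TOP mRNAs, Rheb fell by 0.49 (limma adjusted p = 0.0122) and the median was 0.03. Mtor and Eif4ebp1 did not pass (limma adjusted p = 0.269 and 0.852). Emg1, Imp3, Pdcd2 and Rheb passed in all 8 fits that left out a library. Myc passed in 2 of them (highest adjusted p 0.0861, without wildtype 1), Npm1 in 4 (0.0738, without wildtype 10), Polr1d in 4 (0.0839, without wildtype 1) and Aamp in 0 (0.111, without wildtype 10). Nop10, Fbl and Rcl1 passed in 2 each and Rrp9 and Pdcd2l in 3 each. With the longest-transcript trend removed, Emg1, Pdcd2 and Rheb were still called lower and Myc higher (limma adjusted p = 0.0122, 0.0207, 0.0143 and 0.0429). Imp3, Rrp9, Rcl1, Npm1, Nop10, Fbl, Polr1d, Pdcd2l and Aamp did not pass there, with limma adjusted p between 0.0601 for Aamp and 0.295 for Nop10. Gar1, Nol6, Ddx18 and Ddx24 were called higher with that trend removed (limma adjusted p = 0.0419, 0.0256, 0.0355 and 0.0365).

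**Figure D5:**
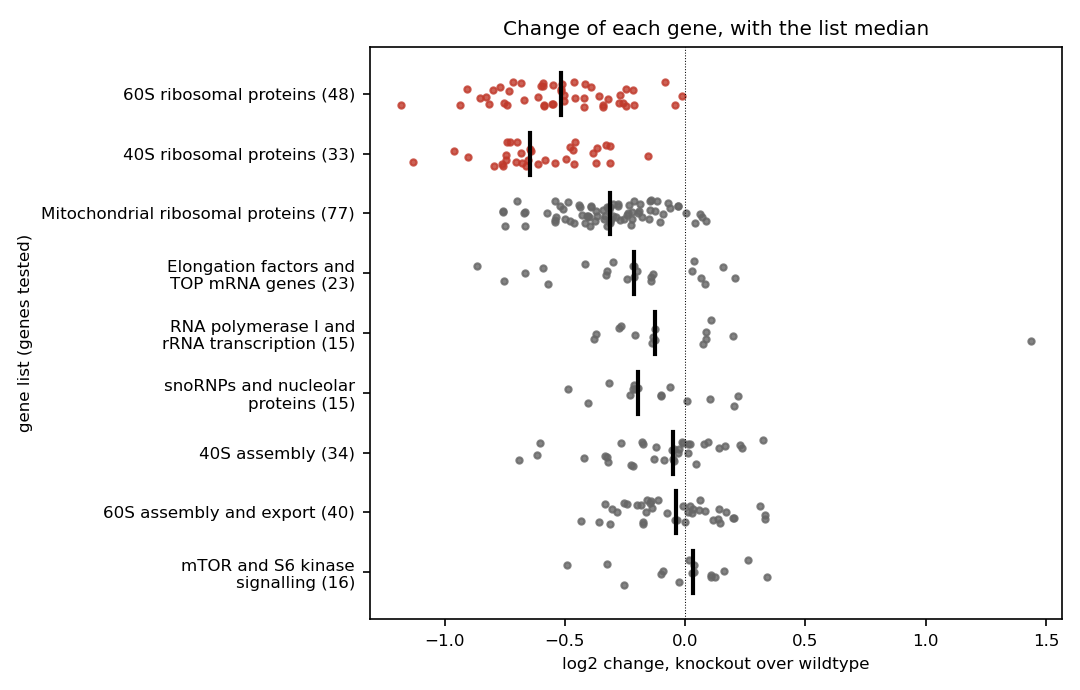
Log2 change of knockout over wildtype for each tested gene (points) of the 60S and 40S ribosomal proteins (red) and of 7 other gene lists (grey), with the list median as a black bar and the number of genes in brackets. The ribosomal protein medians, -0.52 and -0.65, lie to the left of the others, mitochondrial ribosomal proteins come next at -0.31, and the assembly and mTOR lists lie near 0.

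The depth estimated from the FPKM of a single fragment was 32.9 M to 38.0 M fragments (M for 1000000) per knockout library and 29.2 M to 34.2 M per wildtype library. At these depths all 81 genes tested were far above the level of a single fragment. Leaving out each library in turn, 49 of the 67 genes passed every time, and the number that fell lay between 50 without wildtype 1, where 5.83% of all genes fell, and 64 without knockout 11, where 9.42% fell. Among the genes named above, Rpl28 passed only without knockout 11 and not without any of the other 7, with adjusted p values up to 0.118 without wildtype 1. Rpl3 did not pass without knockouts 3 or 11 or any wildtype (up to 0.093 without wildtype 10), and Rpl7 without knockouts 3 or 11 or wildtypes 1, 3 or 10 (up to 0.0937 without wildtype 10). Rpl37 did not pass without knockouts 3 or 9 or wildtypes 1, 3 or 12 (up to 0.0814 without wildtype 1), and Rpl13a without knockout 3 or wildtypes 1, 3 or 12 (up to 0.0749 without wildtype 12). Rpl27a did not pass without wildtype 1 (0.0614) or wildtype 10 (0.0539), nor Rps6 without wildtype 10 (0.0501). Rpl41 passed with knockouts 3 and 11 both left out, at a log2 change of -0.49 (limma adjusted p = 0.0247).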

How the data were processed

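Liver RNA of 4 knockout and 4 wildtype samples was sequenced after Trizol extraction, DNase treatment and column purification, per the labels' protocols. The submitters' processing notes list Cufflinks 2.2.1, HTSeq and TopHat2 2.1.0 with no role stated, and the build mm10. The authors' deposited table gives FPKM per Ensembl gene. The unit was read from the values and the tools, since the header names libraries only. The sources used here give no annotation, strand setting or read length, and reads of antisense or overlapping genes cannot be told apart.

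Names, coordinates and lengths came from GENCODE mouse release M21, and 24807 of the 25690 genes had a name. Genes averaging 1 FPKM or more were fitted as log2(FPKM + 1) with limma 3.58.1 in R 4.3.3. Genotype was the single term, variances were moderated with a mean trend, tests were two-sided and Benjamini-Hochberg adjustment ran over all 10250 genes at 0.05. Folds on this scale understate the change of low genes. No count model was used. Depth was estimated from the FPKM of single fragments on transcripts of 400 bases and over, with a tolerance of 2%, and covers counting error only.

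The genes, the lists and the rule for named genes were chosen with earlier results of these data known. Named were the 10 genes with the smallest adjusted p, the 5 most positive and 5 most negative changes, the 5 highest and 5 lowest levels, the P-stalk, Rpl5, Rpl11, Rpsa, Rps6, Rps27a, all paralogue pairs, and genes with a library far from the others of its group. Rpl24, Rpl10a, Rpl35, Rpl4, Rpl7a and Rps2, the genes listed as falling in all length fits, and the ratios between members were added after their values were seen. Of the ribosomal proteins under other symbols, Fau and Rack1 are reported here.

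Alternatives were other pseudocounts, filters, scalings and variance models, trends along length or GC content removed by loess of span 0.5, the title number as a block, and leaving out libraries. The trends along coding sequence length were chosen after seeing the data. The fit was tested on simulated data for the comparison of knockout with wildtype, with 10250 genes. It recovered 92% of 100 genes given a log2 change of 1, and 98% of 100 given 2. Among the 204 calls 6.86% were genes left as they were, and with no change simulated there were 0 calls. In these draws genes varied independently, with no shift shared within a library and no length trend. A further check added to the same draws a trend along log10 coding sequence length, as a straight line, and removed it by loess. It recovered 93.8% of the changed protein-coding genes given 1 and 97.8% of those given 2. Shifts shared within a library, genes that vary together and length trends of another shape are not covered.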

Additional observations from a re-analysis of the deposited data

Results flagged for a closer look

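In 8 of 162 groups of 4 libraries (a gene in a genotype), or 4.94%, the lowest or highest library stood far from the other 3. By chance this happens in about 1 in 20 groups. In the knockouts Rpl22l1 was at 46.4 FPKM in knockout 3, with the others between 56.5 and 57.3 FPKM, and Rps27l was at 330.2 FPKM in knockout 3, with the others between 401 and 405 FPKM. Rpl29 was at 213 FPKM in knockout 11, with the others between 142 and 149 FPKM, and Rps12 was at 749 FPKM in knockout 11, with the others between 576 and 601 FPKM. In the wildtypes Rpl30 was at 847 FPKM in wildtype 1, with the others between 773 and 781 FPKM, and Rps25 was at 616 FPKM in wildtype 1, with the others between 578 and 582 FPKM. Rpl27a was at 272 FPKM in wildtype 12, with the others between 301 and 303 FPKM, and Rpl28 was at 972 FPKM in wildtype 12, with the others between 1112 and 1126 FPKM. Knockouts 3 and 11, the libraries with high acute phase genes, hold the 4 knockout values, and wildtypes 1 and 12 hold the 4 wildtype values.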

How the results depend on the processing

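The number of ribosomal protein genes that rose was 0 in all 23 settings. The median log2 change stayed below 0 in each. The number that fell was 67 with a pseudocount of 0.1, a minimum of 5 FPKM, robust variances or library weights. Of all genes, 11.5%, 19.9%, 11.7% and 13.4% fell in these settings, in the same order. It was 55 ribosomal protein genes once the GC trend was taken out or no filter was applied, where 8.01% and 2.6% of all genes fell. The number of ribosomal protein genes that fell was 34 with quantile normalization and between 50 and 64 without each library. It was 29, 22, 32 and 33 with the trends along the longest transcript, the longest coding transcript, the coding sequence and the coding sequence fitted on the other genes removed. Of the 67 genes 18 were lost without at least 1 library. The cause of these changes was not tested.

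The number in the titles is shared by knockout and wildtype for 3 and 10 only. With it as a replicate block 0 ribosomal protein genes fell, as did 1 of all genes, while 1 rose, and the median was -0.62. Same-numbered libraries had correlations of -0.008 and 0.02 of their deviations from the group means. Those of knockouts 3 and 10 with wildtypes of another number lay between -0.11 and 0.14. With so few shared numbers, this cannot decide whether the numbers pair the samples. The block also leaves few degrees of freedom.

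The median log2 change was -0.45 with median-ratio scaling, -0.26 with quantile normalization, and -0.29, -0.20, -0.30 and -0.31 in the 4 length fits in the order above. All genes lower and higher numbered 1195 and 277 as reported, 668 and 151 with no filter, 720 and 485 with median-ratio scaling, 652 and 470 with quantile normalization, and 585 and 516, 487 and 465, 530 and 463, and 544 and 438 in the length fits. With the GC trend removed 549 were higher, and without knockouts 3 and 11 together 653 were lower. Leaving out each library gave 598 to 1296 lower and 105 to 361 higher.

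Of the called genes Rpl19, Rpl23a and Rps15 were above 0 with the longest-transcript trend removed, at 0.0093, 0.009 and 0.040, and with the longest coding transcript trend removed, at 0.061, 0.096 and 0.12, where Rps26 was at 0.10. Of the genes named by rule, 8 that were not called changed direction. Under median-ratio scaling Rpl29 was at 0.10, Rpl7l1 at 0.020 and Rplp0 at 0.066. Under quantile normalization Rpl29 was at 0.21, Rpl5 at 0.013, Rpl6 at 0.058, Rpl7l1 at 0.028, Rplp0 at 0.20, Rps12 at 0.024 and Rpsa at 0.11. With the longest-transcript trend removed Rpl29 was at 0.31, Rpl41 at 0.11, Rpl6 at 0.022, Rpl7l1 at 0.010 and Rplp0 at 0.18. With the longest coding transcript trend removed Rpl29 was at 0.36, Rpl41 at 0.22, Rpl6 at 0.027, Rplp0 at 0.18 and Rps12 at 0.16. With the coding sequence trend removed Rpl29 was at 0.24, Rpl41 at 0.29, Rpl7l1 at 0.078 and Rplp0 at 0.075, and fitted on the other genes at 0.23, 0.26, 0.073 and 0.073. With the GC trend removed Rpl29 was at 0.037, Rpl7l1 at 0.013 and Rplp0 at 0.032. Without knockouts 3 and 11 Rpl7l1 was at 0.078 and Rplp0 at 0.049. Rpl29 lay between -0.15 and 0.044 without each library, at -0.15 without knockout 11.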
